A study of Mus musculus with 6 samples.

Results

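NF-κB is a family of dimeric transcription factors that act downstream of the T cell receptor, CD28, IL-1 receptor and tumor necrosis factor receptor signals. The 10 genes examined here encode the 5 DNA-binding subunits (*Nfkb1*, *Nfkb2*, *Rel*, *Rela* and *Relb*) and 5 inhibitors or modulators (*Nfkbia*, *Nfkbie*, *Nfkbid*, *Nfkbiz* and *Tnfaip3*). They were taken by symbol from the known pathway, with earlier results of these data known, and all 10 were found among the 16244 genes of the deposited table. Naive CD4+ T cells from spleens of WT mice and of RORγtN275D knockin mice were stimulated with anti-CD3 and anti-CD28. They were polarized for 3 days under pathogenic Th17 conditions, which included IL-6, IL-1β and IL-23. The study's methods also list anti-IL-4 and anti-IFN-γ antibodies among the Th17 conditions, and leave unclear whether TGF-β was added. From these cultures, 3 RNA-seq libraries of each genotype were analysed. The knockin is a germline asparagine-to-aspartate change in the ligand-binding domain of RORγt, the transcription factor that defines Th17 cells, so every cell of the donor carries it. Zygosity, donor age and the number of animals behind each library are not given in the labels. The methods give an age range and both sexes only for the study's experiments in general. Both genotypes are described as C57BL/6, but according to the methods the WT mice were purchased and the knockin mice came from another laboratory. The study's resource list names the WT stock as C57BL/6NJ, and the substrain of the knockin mice is not stated. Genotype, mouse source and any difference in substrain therefore cannot be told apart.

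In resting cells, NF-κB dimers are held in the cytoplasm by inhibitors of the IκB family, whose degradation releases them to the nucleus. Many inhibitor genes are themselves NF-κB targets, which gives the pathway negative feedback. In Th17 cells the pathway also feeds into lineage genes, since the nuclear IκB protein encoded by *Nfkbiz* is known to act with ROR factors at the *Il17a* locus.

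The 5′ regions of the members were searched for κB sites, the DNA element that NF-κB dimers bind. The RefSeq promoter windows on GRCm38.p6 span 250 bases before to 50 bases after an annotated transcription start. They were matched for 7 of the 10 members, in 12 windows. *Nfkb1*, *Relb* and *Nfkbiz* had no matched window. A broad κB pattern (GGG, any 5 bases, then CC), searched on both strands, was present in 12 of the 12 windows, but also in 50.8% of all 32851 windows. A narrower pattern (GGGA, any base, TT, any base, CC) lies within the broad one and was chosen after the broad matches had been seen. It was present in 6 of the 12 windows, belonging to 4 members (*Nfkb2*, *Rel*, *Nfkbia* and *Nfkbid*), and in 1.2% of all windows. Windows of the same gene can overlap, and a single *Nfkb2* site was counted in overlapping windows, so the windows are not independent. The windows below show a narrow match in each of these 4 members, marked in capitals. The window of *Rela*, 1 of those whose letters hold none, is also shown. Each is written 5′ to 3′ on the strand of the gene.
*Nfkbid*, chr7:30422156-30422455, plus strand: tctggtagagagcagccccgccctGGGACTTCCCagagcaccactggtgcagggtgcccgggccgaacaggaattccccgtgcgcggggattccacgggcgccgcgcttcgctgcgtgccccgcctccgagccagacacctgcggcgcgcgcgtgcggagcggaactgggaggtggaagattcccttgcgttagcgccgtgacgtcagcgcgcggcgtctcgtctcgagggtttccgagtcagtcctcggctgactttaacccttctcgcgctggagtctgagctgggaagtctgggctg
*Nfkbia*, chr12:55492598-55492897, minus strand: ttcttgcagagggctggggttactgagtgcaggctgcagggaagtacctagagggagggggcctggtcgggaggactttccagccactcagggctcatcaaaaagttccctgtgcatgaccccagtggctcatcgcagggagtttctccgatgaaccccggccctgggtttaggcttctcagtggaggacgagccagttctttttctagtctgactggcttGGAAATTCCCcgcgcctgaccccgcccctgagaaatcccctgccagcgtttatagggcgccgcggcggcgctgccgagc
*Rel*, chr11:23770920-23771219, minus strand: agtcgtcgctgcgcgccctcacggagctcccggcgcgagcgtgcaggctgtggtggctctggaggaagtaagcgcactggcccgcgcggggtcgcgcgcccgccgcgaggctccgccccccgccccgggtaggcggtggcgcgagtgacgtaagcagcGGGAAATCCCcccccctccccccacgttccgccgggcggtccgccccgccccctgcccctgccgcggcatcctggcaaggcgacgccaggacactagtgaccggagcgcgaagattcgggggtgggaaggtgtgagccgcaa
*Nfkb2*, chr19:46305445-46305744, plus strand: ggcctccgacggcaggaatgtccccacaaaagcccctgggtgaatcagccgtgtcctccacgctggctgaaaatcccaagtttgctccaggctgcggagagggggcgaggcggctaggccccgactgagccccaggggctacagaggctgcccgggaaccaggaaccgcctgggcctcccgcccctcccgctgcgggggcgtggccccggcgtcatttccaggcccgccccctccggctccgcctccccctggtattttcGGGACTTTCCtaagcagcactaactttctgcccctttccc
*Rela*, chr19:5637291-5637590, plus strand: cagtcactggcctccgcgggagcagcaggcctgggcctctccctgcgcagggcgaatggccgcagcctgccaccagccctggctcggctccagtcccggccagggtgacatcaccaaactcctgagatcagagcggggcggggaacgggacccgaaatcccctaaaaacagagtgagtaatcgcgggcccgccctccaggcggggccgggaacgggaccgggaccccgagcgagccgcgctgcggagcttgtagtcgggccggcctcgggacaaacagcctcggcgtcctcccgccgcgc

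The match in *Nfkbid*, GGGACTTCCC, begins 226 bases before that start. In *Nfkbia* the match GGAAATTCCC begins 29 bases before the start, and in *Rel* the match GGGAAATCCC begins 92 bases before it, both with the pattern reading on the opposite strand and the letters given as printed here. The *Nfkb2* match, GGGACTTTCC, begins at base 11 of the transcript in the window shown and falls 225 bases before a further annotated start. The windows of *Nfkbie* and *Tnfaip3* held the broad pattern without the narrow one. AGGTCA, the core element of ROR binding sites, occurred in 1 of the 12 windows, another *Nfkbid* window, and in 16.3% of all windows. ACGTG, the core of a hypoxia response element, occurred in the *Rel* window and in both *Tnfaip3* windows, and in 19.6% of all windows. A match is a string of letters and was not tested as a binding site.

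The libraries were of similar depth, with 17659035 to 18510878 reads on genes if the step between values in a library is taken as 1 read, a reading of the values used for depth alone. Values are normalized reads, that is, reads per gene scaled by 1 factor per library. Genes were called with limma at an adjusted p under 0.05, with no minimum fold change. The 7 Th17 markers compared summed to between 73658 and 77751 normalized reads in WT and between 86152 and 87303 in RORγtN275D cells, so both genotypes expressed the lineage's genes.

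Of the 10 members, 7 were lower in RORγtN275D than in WT Th17 cells, and 0 were called higher. The lower members were the 5 inhibitors and, among the subunits, *Rel* and *Nfkb2*. Over all 11908 genes tested, 50.9% were called, 26.1% lower and 24.7% higher, so that a call by itself was common in these data. The median log2 fold change of the 10 members was -0.27, against -0.0026 over all genes tested. In 7 members all 3 mutant libraries lay below all 3 WT libraries, an arrangement seen in 29.6% of the genes tested. At this group size the smallest two-sided p that exact permutation of the labels allows for any one gene is 0.1. Whether the libraries of a genotype came from separate animals or cultures is not stated, and the p-values measure only the spread between these libraries, which may be technical. In bulk RNA, fewer cells that express a gene and less of its RNA per cell cannot be told apart.

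**Figure D1:**
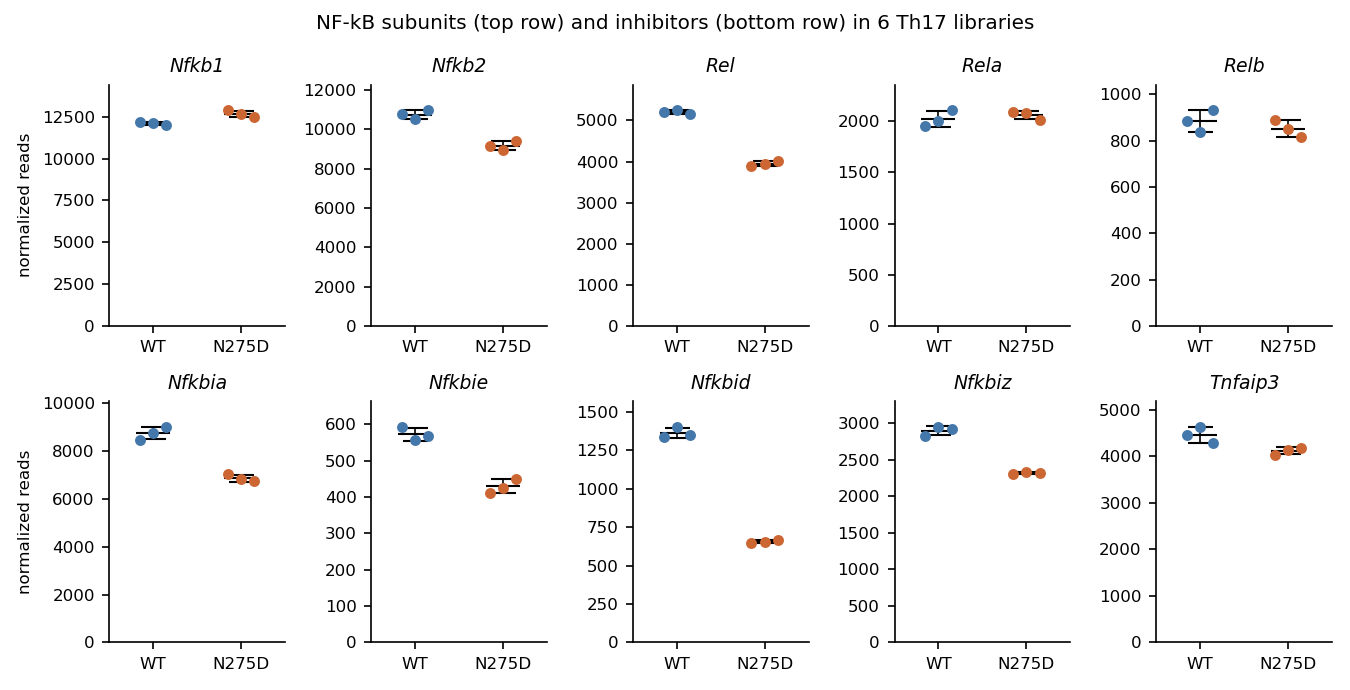
Normalized reads of the 5 subunits (top row) and the 5 inhibitors (bottom row) in each library. Points are the 3 WT and 3 RORγtN275D (N275D) libraries, bars are the mean and SD, and each vertical axis starts at 0. Relative to its level, *Nfkbid* shows the widest gap, from 1337 or more in WT to 668 or less in the mutant, while *Rela* and *Relb* overlap.

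Of the subunits, *Rel* fell most. *Rel* encodes c-Rel, the subunit best known in T cells for driving *Il2* transcription, and lies on GRCm38 chromosome 11, 23736847 to 23770969. The WT libraries had 5196, 5246 and 5163 normalized reads and the mutant libraries 3881, 3951 and 4017. The groups did not overlap, and the mutant mean was 24.1% lower. On the log2 scale *Rel* fell by 0.40 (standard error 0.04, 95% interval -0.47 to -0.32, adjusted p = 1.47e-07 from limma).

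*Nfkb2* encodes the precursor that is processed during noncanonical NF-κB signaling to yield the partner of RelB (chromosome 19, 46300994 to 46312400). Its values were 10756, 10523 and 10961 normalized reads in WT and 9153, 8966 and 9403 in mutant libraries. Each mutant library was below each WT library, with a mean 14.6% lower. This was a log2 fold change of -0.23 for *Nfkb2* (standard error 0.03, limma adjusted p = 4.06e-05). The annotated gene overlaps *Psd* and a noncoding RNA on the opposite strand, and whether the counting used strand is not given in the sources used here.

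*Nfkb1* (chromosome 3, 135584655 to 135691969), which encodes the precursor of the usual partner of RelA and c-Rel, had 12155, 12152 and 12010 normalized reads in WT and 12877, 12640 and 12500 in mutant libraries. The mutant libraries all lay above the WT libraries, as in 28.1% of the genes tested, yet the difference did not pass the test. The log2 fold change of *Nfkb1* was 0.07 (95% interval -0.0012 to 0.13, adjusted p = 0.0945 from limma). Under quantile normalization it was 0.12 and passed (adjusted p = 0.00301). The annotated gene overlaps *Gm43430* on the same strand, whose reads counting by strand would not separate.

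The main transactivating subunit, RelA, is encoded by *Rela* (chromosome 19, 5637442 to 5648134). *Rela* had 1953, 1998 and 2105 normalized reads in WT and 2089, 2077 and 2011 in mutant libraries, so the groups overlapped. Its log2 fold change was 0.03 (95% interval -0.06 to 0.12, adjusted p = 0.600 from limma). *Relb* (chromosome 7, 19606217 to 19629438), the noncanonical partner of the *Nfkb2* product, had 885, 838 and 930 normalized reads in WT and 887, 851 and 816 in mutant libraries. The groups overlapped again, with a log2 fold change of -0.05 (95% interval -0.17 to 0.06, adjusted p = 0.430 from limma). The intervals of *Rela* and *Relb* together span -0.17 to 0.12, and differences within their intervals cannot be told from none with 3 libraries each.

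Among the inhibitors, *Nfkbid* showed the largest decrease of the 10 members and the single one past 2-fold, a threshold that 3.59% of all genes tested passed in either direction and 0.857% in the lower one. *Nfkbid* encodes the atypical nuclear IκB protein IκBNS, which is induced by T cell receptor signaling and modulates NF-κB at its target genes (chromosome 7, 30421731 to 30428749). The WT libraries had 1337, 1402 and 1347 normalized reads, and the mutant libraries had 649, 650 and 668. The mutant mean was 51.9% lower, with replicates close together in both groups. On the log2 scale *Nfkbid* decreased by 1.05 (standard error 0.05, 95% interval -1.16 to -0.95, adjusted p = 4.96e-11 from limma).

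*Nfkbia* encodes IκBα, the classical cytoplasmic inhibitor and the best known NF-κB feedback target (chromosome 12, 55489409 to 55492647). It had 8466, 8754 and 8998 normalized reads in WT and 7010, 6825 and 6732 in mutant libraries. All mutant values were under all WT values, and the mean was 21.6% lower. *Nfkbia* thus fell by 0.35 on the log2 scale (standard error 0.04, limma adjusted p = 7.46e-07).

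*Nfkbie* encodes IκBε, another cytoplasmic inhibitor, which preferentially holds c-Rel and RelA dimers (chromosome 17, 45555700 to 45563169). It was the least abundant member, with 592, 557 and 567 normalized reads in WT and 411, 425 and 449 in mutant libraries. The groups were well apart despite the low level, and the mean was 25.1% lower. *Nfkbie* decreased by 0.42 on the log2 scale (standard error 0.06, limma adjusted p = 3.29e-05).

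*Nfkbiz* encodes IκBζ, the nuclear IκB protein that acts with RORγt and RORα in Th17 cells (chromosome 16, 55811375 to 55838954). It had 2826, 2951 and 2923 normalized reads in WT and 2310, 2330 and 2322 in mutant libraries. The mutant libraries clustered tightly under the WT libraries, with a mean 20.0% lower. *Nfkbiz* dropped by 0.32 on the log2 scale (standard error 0.04, limma adjusted p = 4.26e-06).

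*Tnfaip3* encodes a ubiquitin-editing enzyme that shuts off signaling upstream of the IκB kinases (chromosome 10, 19000910 to 19015410). It had 4453, 4635 and 4279 normalized reads in WT and 4034, 4145 and 4177 in mutant libraries, a mean 7.56% lower. This was the smallest decrease among the called members, and the lowest WT value was close to the highest mutant value. For *Tnfaip3* this came to -0.11 on the log2 scale (standard error 0.04, limma adjusted p = 0.0239). The call was lost under quantile normalization (-0.03, adjusted p = 0.595) and in eBayes without a trend (-0.11, adjusted p = 0.0898). It was also lost without WT replicate 1 (adjusted p = 0.0561), WT replicate 2 (0.117), RORγtN275D replicate 1 (0.105) or RORγtN275D replicate 2 (0.0627).

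**Figure D2:**
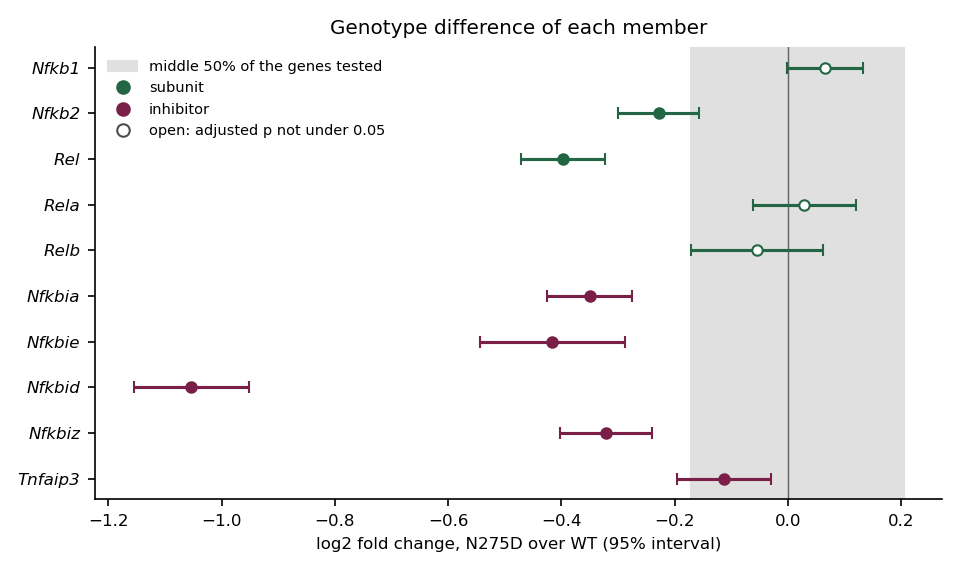
Log2 fold change of each member, RORγtN275D over WT, with its 95% interval from limma (green, subunits; purple, inhibitors; open points, adjusted p not under 0.05). The grey band holds the middle 50% of all 11908 genes tested. The intervals of *Rel*, *Nfkbia*, *Nfkbie*, *Nfkbid* and *Nfkbiz* lie wholly to the left of the band.

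Per kilobase of the longest annotated coding transcript, *Nfkbia* was the most abundant member in both genotypes, at 5538 ± 169 normalized reads per kilobase in WT and 4345 ± 89.6 in RORγtN275D cells (SD, n = 3 each). *Nfkb1* followed (2940 ± 20.1 in WT, 3078 ± 46.3 in mutant cells), then *Nfkb2* (2794 ± 57.0 and 2385 ± 57.0), *Tnfaip3* (1008 ± 40.3 and 931 ± 17.0) and *Rela* (743 ± 28.7 and 758 ± 15.6). In WT cells *Nfkbiz* (705 ± 15.9) and *Rel* (697 ± 5.64) overlapped between libraries, so they were not separated, and *Rela* lay just above both. *Nfkbid* came next in WT (668 ± 17.2), with a highest library just above the lowest of *Nfkbiz*, and ahead of *Relb* (400 ± 20.8) and *Nfkbie* (235 ± 7.56). In RORγtN275D cells this part of the order differed. *Nfkbiz* (564 ± 2.48) and *Rel* (529 ± 9.11) no longer overlapped, and *Nfkbid* (321 ± 5.14) lay under *Relb* (385 ± 16.2), with *Nfkbie* again lowest (176 ± 7.90). The order depends on the length used. Over the union of all annotated exons, *Nfkb1*, whose union is 12061 bases against 4117 for its longest coding transcript, had 1004 normalized reads per kilobase in WT and ranked after *Nfkb2* at 2344. The change of place between *Nfkbid* and *Relb* was also absent with that length, at 581 and 228 in WT and 279 and 219 in mutant cells.

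**Figure D3:**
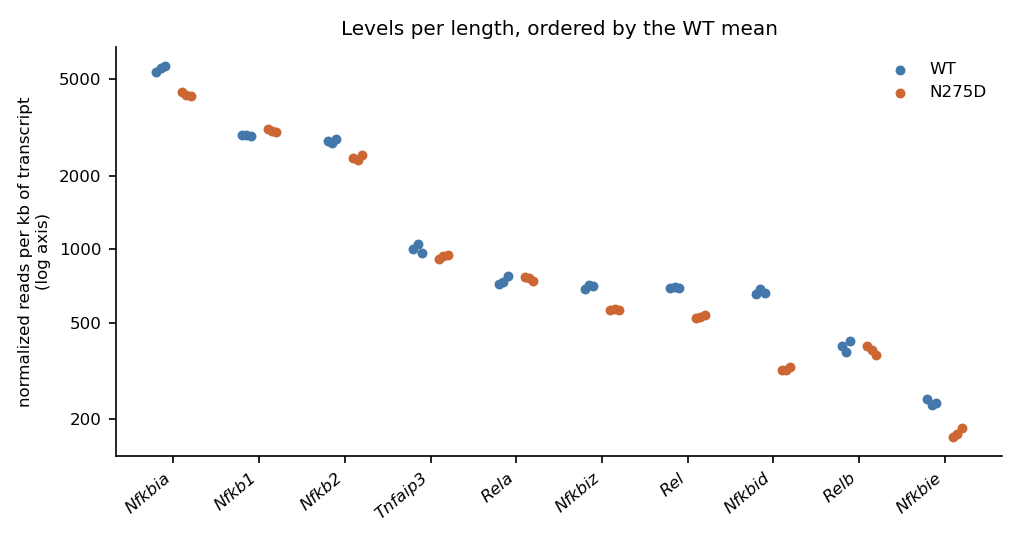
Normalized reads per kilobase of the longest coding transcript for each member, on a log axis, ordered by the WT mean. Points are single libraries. *Nfkbia* is highest in both genotypes, and *Nfkbid* is the member whose 2 groups of points stand farthest apart.

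Ratios taken within a library do not depend on the scaling between libraries. The 5 inhibitors summed to 17675, 18298 and 18114 normalized reads in WT and to 14414, 14376 and 14348 in RORγtN275D libraries. The 5 subunits summed to 30946, 30758 and 31169 in WT and to 28889, 28484 and 28746 in mutant libraries. Both sums were lower in every mutant library, and the log2 ratio of inhibitors to subunits differed by -0.22 (mutant minus WT). Without *Nfkbia*, the most abundant inhibitor, the difference was -0.20. The sums were not scaled for transcript length, so genes with many reads weigh most. The inhibitor sum counts the nuclear modulators *Nfkbid* and *Nfkbiz*. It leaves out *Nfkbib*, another cytoplasmic inhibitor gene, which was higher in the mutant (log2 fold change 0.19). The ratio is therefore that of these chosen genes and not of all inhibitors to all subunits. For *Nfkbia* to *Rela* the log2 ratio was 2.11 ± 0.02 in WT against 1.74 ± 0.02 in the mutant (n = 3 each, SD), and for *Rel* to *Rela* it was 1.37 ± 0.06 against 0.94 ± 0.05. The ratio of *Nfkb2* to *Nfkb1* was -0.17 ± 0.04 in WT and -0.47 ± 0.05 in the mutant, while that of *Relb* to *Rela* was -1.19 ± 0.06 and -1.27 ± 0.03, with groups that overlapped. These ratios are descriptions of chosen genes and were given no p-value.

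**Figure D4:**
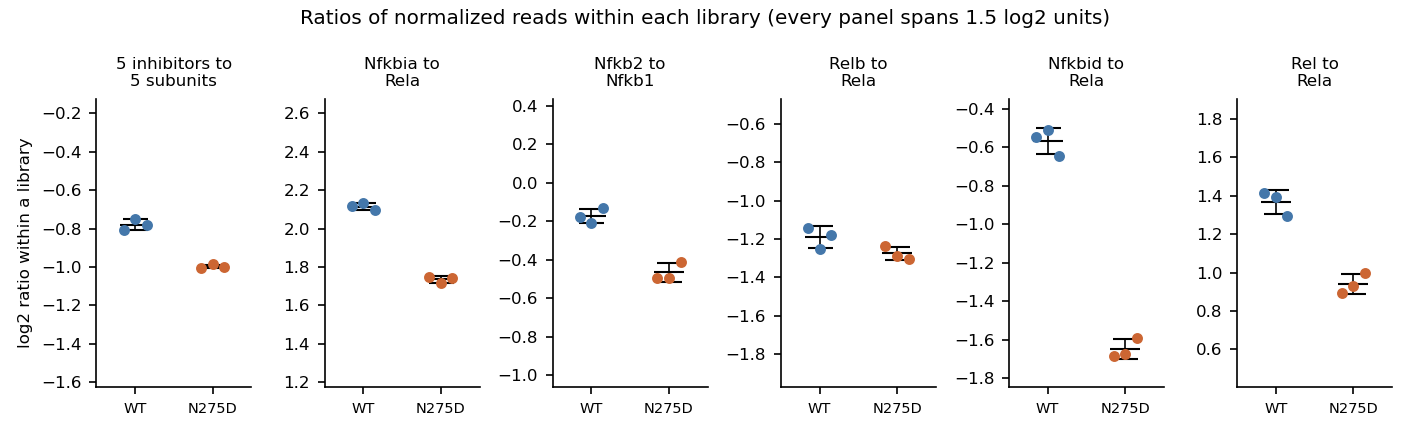
Log2 ratios of normalized reads within each library for the inhibitor sum over the subunit sum and for 5 gene pairs. Points are libraries, and bars are the mean and SD of 3. Every panel spans the same number of log2 units, and the genotypes overlap only for *Relb* to *Rela*.

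The remaining pathway genes were grouped by role in 5 lists, which were also written with earlier results known, so their counts are descriptions. Of these 82 genes, 32 were called lower (39.0%) and 24 higher (29.3%), with a median log2 fold change of -0.02. Over all genes tested, 26.1% were called lower and 24.7% higher. By list, the shares lower and higher were 40% and 30% for kinases with their partners and 16.7% each for TRAF and other adaptors. They were 30% each for ligases and for other brakes, and 56.7% and 33.3% for target genes. Changes of at least 2-fold were seen in 5 of the 82, all from the target list.

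Of the 10 genes for IκB kinase subunits, upstream kinases and adaptors bound to them, 4 were lower and 3 higher, with a median of 0.08. The 4 lower were all kinase genes, namely *Ikbkb* (-0.11), *Ikbke* (-0.23), *Tbk1* (-0.17) and *Map3k7*. The 3 higher were *Ikbkg*, *Tab2* and *Tab3* (0.20), which encode a regulatory subunit and adaptors, not kinases. *Ikbkg*, which encodes the regulatory subunit NEMO, was higher at 1196 ± 46.9 normalized reads against 960 ± 47.6 in WT (mean ± SD of 3, log2 fold change 0.32). *Tab2*, an adaptor of the kinase encoded by *Map3k7*, rose by 0.28, whereas *Map3k7* itself went from 2828 ± 92.4 to 2340 ± 87.5 (log2 fold change -0.27). *Chuk*, a catalytic subunit of the kinase complex (0.08), and *Map3k14*, the noncanonical kinase NIK (0.12), were not called. The count of lower kinases was 2 in place of 4 without WT replicate 1 or without any one mutant replicate, when every gene above 0 was tested, under quantile normalization and in eBayes without a trend.

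Of 12 TRAF proteins and other adaptors, 2 were higher, 2 lower and 8 not called, with a median of 0.07. *Traf3ip2*, which encodes the adaptor of the IL-17 receptor, was higher in the mutant, at 632 ± 17.0 normalized reads against 476 ± 35.5 in WT (mean ± SD of 3, log2 fold change 0.41). *Myd88*, the adaptor of IL-1 and Toll-like receptors, went from 1386 ± 27.9 to 1084 ± 30.6 (log2 fold change -0.35), and *Traf5* was lower by the test as well (-0.27), a call lost without RORγtN275D replicate 2. The count of higher adaptors was 4 without WT replicate 3 and with library weights, and 5 under quantile normalization.

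The 10 ubiquitin ligases and their partners were balanced, with 3 higher and 3 lower and a median of 0.0032. *Birc3*, an inhibitor-of-apoptosis ligase and NF-κB target, had the largest change (-0.21), followed by *Btrc* (0.18), part of the ligase that marks IκB for degradation, and *Peli1* (0.18). The call of *Btrc* was lost without WT replicate 1 or any one of the mutant replicates. It was also lost under quantile normalization and in eBayes without a trend.

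Of 20 other brakes and IκB-like genes, 6 were lower and 6 higher, with a median of 0.02. *Zc3h12a*, which encodes the RNase Regnase that degrades cytokine transcripts, was lower at 1301 ± 42.0 normalized reads against 1807 ± 49.0 in WT (mean ± SD of 3, log2 fold change -0.47). *Bcl3*, a nuclear IκB-like protein, went from 1621 ± 214 to 1229 ± 14.7 (log2 fold change -0.39). WT replicate 3 was high for *Bcl3*, at 1866 against 1469 and 1529 in the other WT libraries, and without it the log2 fold change was -0.29. *Irak3* had the largest increase (0.66) at a low level of 17.6 ± 3.93 and 28.2 ± 5.08 normalized reads. Its call was lost without WT replicate 1, RORγtN275D replicate 2 or RORγtN275D replicate 3. Quantile normalization and testing every gene above 0 also removed the call of *Irak3*. Named after its values were seen, *Nfkbib*, which encodes the third classical cytoplasmic inhibitor, IκBβ, was higher in mutant cells (2227 ± 63.2 against 1958 ± 36.2 in WT, log2 fold change 0.19), the opposite of *Nfkbia* and *Nfkbie*.

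Of 30 genes known as NF-κB targets in T cells, 17 were lower, 10 higher and 3 not called, with a median of -0.29. *Il2*, the T cell growth factor, was lower in the mutant, at 2142 ± 69.4 normalized reads against 10361 ± 262 in WT (mean ± SD of 3, log2 fold change -2.27). *Ccl20*, the ligand of the Th17 receptor CCR6, had 113 ± 16.5 and 36.2 ± 5.66 (log2 fold change -1.62). *Tnfrsf9*, a costimulatory receptor that signals to NF-κB, moved the other way, from 673 ± 45.7 to 2568 ± 82.8 normalized reads (log2 fold change 1.93). Many of these genes are also driven by other factors that respond to the T cell receptor, and the list does not separate them.

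**Figure D5:**
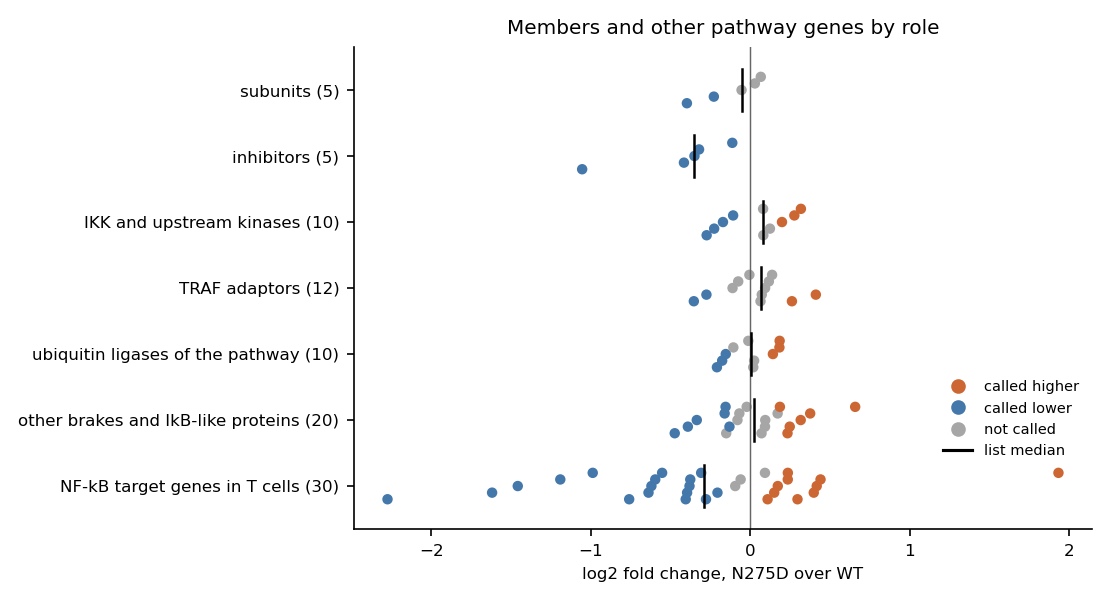
Log2 fold changes, RORγtN275D over WT, of the members and of 5 lists of other pathway genes, with the number tested in brackets. Each point is a gene (orange, called higher; blue, called lower; grey, not called), the black line is the list median, and heights within a row only separate points. The inhibitors lie left of 0, while the lists of kinases with their partners, adaptors, ligases and other brakes each hold points on both sides.

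Markers of other cell types were also compared, since several members are well expressed in B cells and myeloid cells. The 8 B cell markers found summed to between 1140 and 1178 normalized reads in WT and between 1742 and 1808 in RORγtN275D libraries, and 6 of 7 tested were higher, among them *Cd22* (1.13), *Blk* (1.02) and *Cd79a* (0.94). *Ebf1* made up most of that sum, and without it the sums ran from 173 to 183 in WT and from 270 to 328 in the mutant. *Ms4a1* was at 0 in 2 WT libraries and did not exceed 9.88 in any library. Markers of CD8 T and natural killer cells summed to between 251 and 277 in WT and between 360 and 394 in mutant libraries. Of these, 4 of 5 tested were higher, among them *Gzma* (0.82), *Klrk1* (0.72) and *Eomes* (0.69). The exception was *Cd8a*, which was not called, at 32.6 ± 6.70 normalized reads in WT and 27.6 ± 2.67 in the mutant (log2 fold change -0.22). *Klrb1c* was at 0 in 4 of the 6 libraries. The call of *Gzma* was lost under quantile normalization, and without WT replicate 1, WT replicate 2, RORγtN275D replicate 2 or RORγtN275D replicate 3. Myeloid markers summed to between 96.9 and 121 in WT and between 112 and 145 in the mutant, with *Adgre1* lower (-1.70), *Cd14* higher (0.99) and *Tyrobp* at 0 in 5 of the 6 libraries. Dendritic cell markers summed to between 52.5 and 77.6 in WT and between 83.0 and 102 in the mutant (*Flt3*, 1.02), with *Xcr1* at 0 in 2 libraries. *Lyz2*, *Csf1r*, *Itgam*, *Fcgr3*, *Clec7a*, *S100a8*, *Klra7* and *Itgax* were too low to test. *Iglc2*, *Fcrla*, *Ncr1*, *Clec9a* and *Siglech* were looked for by symbol and not found among the genes with values. The B cell, CD8 T and natural killer, and dendritic cell marker sums were thus higher in mutant libraries, whereas 7 members were lower, and their part in the result was not tested. On the Th17 marker list, 5 of 7 genes were higher and 2 lower, and the largest changes were those of *Il23r* (0.70), *Ccr6* (0.38) and *Cd4* (-0.27). For all these marker counts, the shares over all genes tested were 24.7% higher and 26.1% lower.

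Among all genes tested, those whose log2 values followed *Nfkbid* most closely over the 6 libraries were *Jade2*, *Cd5l* and *Ddx21*, with a Pearson r of 0.9996, 0.999 and 0.999. Over 6 libraries in 2 groups that differ this much, such a value largely restates the genotype difference, which was -0.78 for *Jade2*, -1.02 for *Cd5l* and -0.36 for *Ddx21*.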

How the data were processed

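Total RNA from Th17 cultures was profiled as 6 RNA-seq libraries, 3 WT and 3 RORγtN275D, grouped by their titles. The labels name poly-A selection and a directional kit, whereas the methods describe DNBSEQ strand-specific libraries. By those methods, trimming was followed by STAR alignment against mm10 and featureCounts read counting, and the authors used DESeq2 to compare genotypes. Signal values as deposited are the authors' normalized read counts, each a whole multiple (within 1e-06) of 1 factor per library. Log2 fold changes, q-values and group averages computed by the authors share the deposited table and were left aside. Sample columns left unused numbered 0.

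Normalized reads plus 1 were put on the log2 scale, which understates the fold changes of low genes, and limma 3.58.1 in R 4.3.3 (trended prior, no block) was run on the 11908 genes averaging 10 or more. Benjamini-Hochberg adjustment covered all genes tested. Replicates of a genotype had a median SD of 0.07 in log2 units. The fit was run on simulated data as a check of the code, which is no check of the results. Members and gene lists were chosen with earlier results of these data known, so lists are described by counts and medians without a set test. Genes named are the members, up to 3 called genes of largest change in each list, list genes not tested, and the 3 genes most correlated with the member of largest change. *Nfkbib*, *Chuk*, *Map3k14*, *Ikbkb*, *Ikbke*, *Tbk1*, *Tab3*, *Ebf1* and *Cd8a* were named in addition, after their values were seen. Positions and promoter windows are from RefSeq on GRCm38.p6, the build mm10, and transcript lengths from GENCODE vM21. Alternatives were other pseudocounts, filters, scalings, variance models, weights, a block and each library left out. Some genes of the pathway and marker lists are not reported here.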

Additional observations from a re-analysis of the deposited data

How the results depend on the processing

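Of 150 member values over the alternatives, 143 kept their direction and their side of the threshold, 6 lost the call (all *Tnfaip3*), 1 gained it (*Nfkb1*) and 0 reversed. *Nfkb2*, *Rel*, *Nfkbia*, *Nfkbie*, *Nfkbid* and *Nfkbiz* were called lower under 15 of 15 alternatives, with *Nfkbid* between -1.07 and -1.03. Quantile normalization gave *Nfkb1* a log2 fold change of 0.12 and with it 1 member called higher, and gave *Tnfaip3* -0.026 without a call. *Tnfaip3* was also not called in eBayes without a trend (-0.11), and with each library left out in turn it ranged from -0.14 to -0.084. The causes were not tested. With a minimum of 2-fold, 427 of all genes were called, 325 higher and 102 lower, with 1 member lower, and 4 target genes lower and 1 higher among the other pathway genes. The narrower κB pattern, added after seeing the data, was found in 6 member windows in place of 12. Of 160 counts over the single lists, which include those with the 2-fold minimum, 139 stayed within 1.5 times. All the counts with that minimum, which is a stricter call, were among those that did not. Same-numbered replicates of the 2 genotypes did not deviate together (r = -0.05, 0.04 and -0.08 over genes, for numbers 1, 2 and 3), and WT 1 correlated best with mutant 3, WT 2 with mutant 2 and WT 3 with mutant 1, so the number was not taken as a pairing. With the replicate block, 7 members were called lower and 0 higher, and 5727 genes were called in all against 6056 without it. Count models on recovered reads, planned as an alternative, were not run, because the values were treated as normalized signal. With 3 libraries a group, no search for outlying libraries was made. Every member had at least 411 normalized reads in each library, so depth limits mainly the low markers of other cell types.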
